A study of Mus musculus with 45 samples.

Results

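The genes described here are 10 members of the EGF receptor system, namely the receptors Egfr, Erbb2 and Erbb3, the ligands Areg, Ereg, Hbegf, Tgfa and Btc, and the inhibitors Errfi1 and Lrig1. They were listed by name from 24918 gene entries of an RNA-seq count table of mouse colonic epithelium. The rule holds no measured value, but earlier results of these data were known when the genes were chosen. All 10 had an entry, and all 10 were among the 12961 entries that passed the filter on low counts.

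The RNA came from 15 male mice of strain C57BL/6 (C57BL/6J in the methods), with 5 separate mice in each of 3 diet groups. All mice were 6 weeks old when the diets began, carried no engineered allele that the labels name, and were examined after 20 weeks. LF mice ate a diet with 10% fat throughout, HF mice a diet with 60% fat throughout, and HFLF mice 15 weeks of the 60% diet followed by 5 weeks of the 10% diet. The epithelium was released from the entire colon with EDTA, so each library mixes all epithelial cell types and both ends of the colon. The 3 comparisons ask what the high-fat diet changed, and what was different after the return to the low-fat diet.

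EGF receptors are tyrosine kinases at the cell surface that pair with each other when a ligand binds. ERBB2 has no ligand of its own and ERBB3 has a weak kinase, so both act mostly as partners. The pairs switch on the RAS-ERK and PI3K-AKT pathways, which in the gut lining support division of crypt cells and closure of wounds. The ligands are made as membrane-bound precursors, and most are cut free by the protease ADAM17. ERRFI1 binds the kinase domain and blocks it, and LRIG1, which is also known from intestinal stem cells, lowers the amount of receptor.

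Library totals ran from 15230391 to 22762095 counts, the highest in HFLF replicate 3, and the count of each member therefore differed in precision mainly by its level. Ereg had only 15 to 79 counts a library and Btc 103 to 162, whereas Areg had 290 to 523 and Erbb3 5552 to 9298. Values are given as CPM, counts scaled to a common library size with TMM scaling, or as RPKM, the same divided by the exon length in kilobases. That length joins all exons RefSeq lists for a gene and can exceed the length of the transcript expressed here, which affects the order between genes. Epithelial markers were abundant, with 6 genes such as Epcam and Krt8 summing to between 13070 and 15440 CPM in the 15 libraries. Markers of smooth muscle summed to 0.223 to 2.58 CPM, of endothelium to 2.77 to 8.80 and of immune cells to 17.7 to 42.8. Of these 4 lists, all 6 epithelial genes, 4 immune genes and 1 endothelial gene passed the filter, and 0 of smooth muscle did. The smooth muscle list was therefore not tested. With edgeR and with DESeq2, 0 of the tested genes were called. In edgeR an unadjusted p under 0.05 was met by 1 epithelial gene in each comparison with LF mice. Of all genes, 10.9% met it in HF against LF and 16.7% in HFLF against LF mice. In HFLF against HF mice it was met by 2 epithelial genes, 1 immune and 1 endothelial gene, beside 13.4% of all genes. Fibroblast markers summed to 2.34 to 10.9 CPM in LF, 6.78 to 17.4 in HF and 6.02 to 30.7 in HFLF mice. In HFLF against LF mice, 2 of their 4 tested genes had an unadjusted p under 0.05 in edgeR, beside 16.7% of all genes. All 4 had a log2 fold change above 0 there, with a median of 1.09. By edgeR and by DESeq2, 0 of the 4 were called in any comparison. In such bulk tissue, fewer cells of a type and less RNA per cell cannot be told apart.

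Per kilobase of exon, the receptors Erbb2 and Erbb3 were the most abundant members. Erbb2 averaged 71.5 RPKM over the 15 mice and Erbb3 66.2 RPKM. Their ranges overlapped, although Erbb2 was above Erbb3 in 14 of 15 libraries. Errfi1 followed at 28.9 RPKM, in a range that did not meet that of Erbb3. Hbegf, Areg and Lrig1 came next, at 21.6, 19.4 and 17.4 RPKM, with overlapping ranges between neighbours. The range of Hbegf also overlapped that of Errfi1, and the range of Lrig1 that of Tgfa. Tgfa at 12.0, Egfr at 8.05, Btc at 2.70 and Ereg at 0.648 RPKM came below, and from Tgfa downward no range touched the next. Of the summed level of the 3 receptors, Egfr made up 5.30% ± 0.362 (SD, n = 5) in LF, 5.92% ± 0.283 in HF and 5.45% ± 0.916 in HFLF mice. Erbb2 and Erbb3 made up the rest, near equal shares of each, in all groups.

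**Figure D1:**
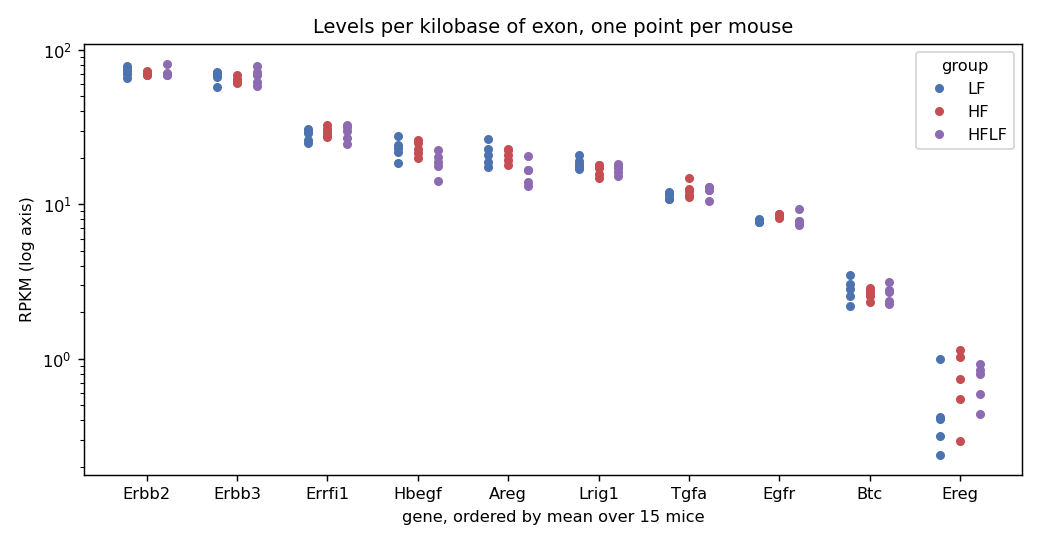
RPKM on a log axis for each of the 10 genes, with 1 point per mouse and colours for the LF, HF and HFLF groups. Erbb2 and Erbb3 sit highest at means of 71.5 and 66.2 RPKM, and Ereg lowest at 0.648 RPKM.

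A gene was called in a comparison in edgeR's quasi-likelihood test over all 12961 entries when 3 limits were met: a fold change over 1.2, an unadjusted p below 0.01, and a p adjusted by Benjamini-Hochberg below 0.25. In HF against LF mice, 0 of 10 members were called by edgeR and 0 by DESeq2, where 1.58% of all genes were (0.718% higher and 0.864% lower), and 1 member, Lrig1, had an unadjusted p under 0.05. Against LF, HFLF mice had 1 member called, Areg, which was lower, where 3.72% of all genes were called (1.85% higher and 1.87% lower). Against HF, HFLF mice had 0 members called by edgeR and 1 by DESeq2 (Areg), where 2.65% of all genes were called (1.23% higher and 1.42% lower), and Areg and Hbegf had an unadjusted p under 0.05. A single call among 10 genes is not a result about the members as a group. The median log2 fold change of the members was -0.03, 0.00 and -0.03 in these 3 comparisons, beside 0.00 for all genes in each. The comparisons share libraries, each group entering 2 of the 3, so their values are set side by side below and not counted as separate evidence.

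**Figure D2:**
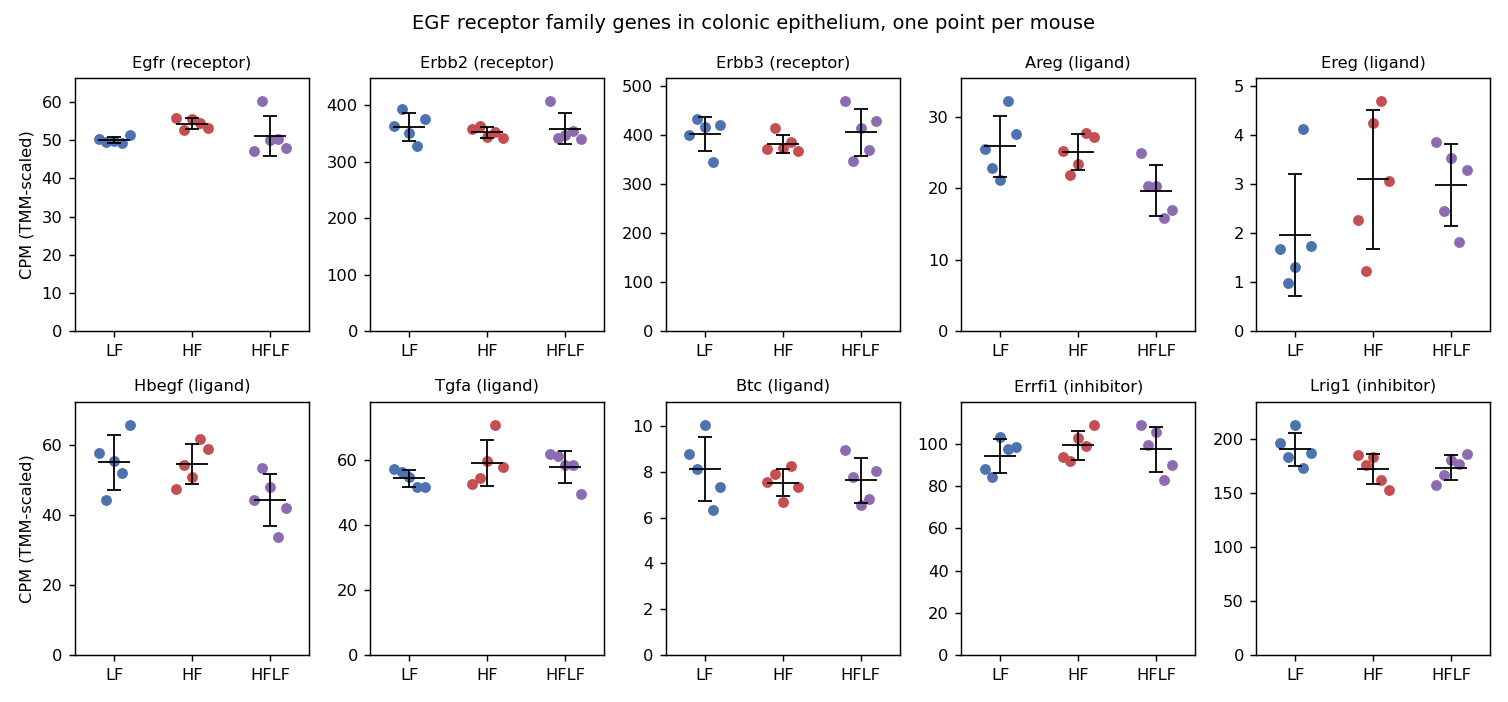
CPM of the 10 genes in each mouse, with a horizontal line and bars for the mean and SD of 5 mice per group; each panel starts at 0. Areg and Hbegf lie lowest in HFLF mice, with means of 19.7 and 44.2 CPM, and Egfr is the one gene whose HF points all lie above its LF points.

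Among the receptors, Egfr (chromosome 11, 16752203 to 16913907, plus strand, mm10) was slightly higher in HF mice than in LF mice. Its level was 50.3, 49.4, 49.9, 49.2 and 51.5 CPM in LF mice 1 to 5, and 55.9, 52.7, 55.5, 54.4 and 53.1 CPM in HF mice. Every HF mouse was above every LF mouse, a separation that 2.47% of all genes had in this comparison. The difference was small, with a log2 fold change of 0.12 (SE 0.06) and an adjusted p of 0.464 in edgeR, so it did not pass the test. In HFLF mice the values were 47.2, 60.2, 50.1, 50.4 and 47.9 CPM, so that replicate 2 lay above all other mice and the remaining replicates within or just below the LF and HF range. The log2 fold change was 0.03 (SE 0.06) against LF and -0.09 (SE 0.06) against HF.

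Erbb2 (chromosome 11, 98412484 to 98437716, plus strand) and Erbb3 (chromosome 10, 128569368 to 128589501, minus strand) code for the partner receptors. Erbb2 averaged 362 ± 24.8 CPM in LF, 352 ± 9.50 in HF and 358 ± 27.6 in HFLF mice (SD, n = 5). Erbb3 averaged 403 ± 34.6, 382 ± 18.9 and 406 ± 48.0 CPM in the same order. The groups overlapped for both genes in every comparison. All 6 of their log2 fold changes lay between -0.08 and 0.09, with SEs of 0.06 for Erbb2 and 0.07 for Erbb3. The last bases of Erbb2 overlap Mien1 on the opposite strand. The strand setting of the counting is not given in the sources used here, which leaves counts of overlapping genes uncertain.

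Areg (chromosome 5, 91139615 to 91148432, plus strand) codes for amphiregulin, a ligand that binds EGFR. It was the one member called, and it fell in HFLF against LF mice. The level was 25.5, 22.9, 21.2, 32.2 and 27.7 CPM in LF mice and 25.2, 21.9, 23.4, 27.8 and 27.3 CPM in HF mice, against 25.0, 20.3, 20.3, 15.9 and 16.9 CPM in HFLF mice. HFLF replicate 1 lay among the LF and HF mice, and the other 4 HFLF mice were each below all LF and HF mice. The log2 fold change of HFLF against LF was -0.40 (SE 0.12, adjusted p = 0.105 in edgeR), a level that fell by 24.0%. Against HF it was -0.35 (SE 0.12, unadjusted p = 0.0107), which missed the limit of 0.01, and HF against LF gave -0.04 (SE 0.12). Direction held in all 24 alternatives for the call against LF, between -0.49 and -0.30 with adjusted p from 0.0496 to 0.213, but the call was kept in 18 of them. It was lost without LF replicate 4 (-0.30), LF replicate 5 (-0.37), HFLF replicate 4 (-0.33) or HFLF replicate 5 (-0.35), when LF and HFLF mice were fitted alone (-0.39), and at an adjusted p under 0.05 with no fold limit. That last alternative reads the main fit at another limit, so its direction could not change. The 5 fits without an HF mouse touch this comparison only through the filter, the scaling and the shared spread, and all kept the call.

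**Figure D3:**
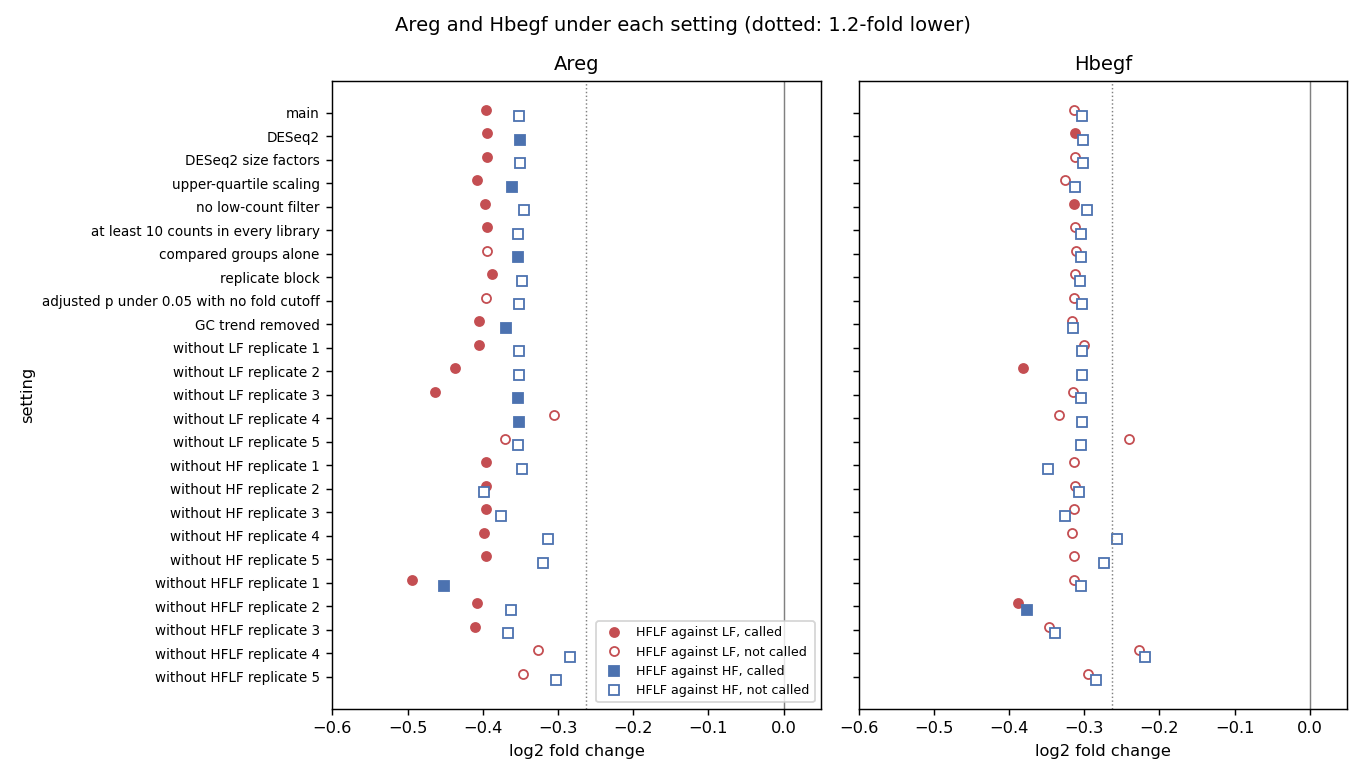
Log2 fold change of Areg and Hbegf in HFLF against LF (circles) and HFLF against HF (squares) mice under the reported setting and each of 24 alternatives, with filled symbols where the gene was called and a dotted line at a fold change of 1.2. All points lie below 0, and Areg against LF is called in 18 of the 24 alternatives whereas Hbegf against LF is called in 4.

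The stretch of 250 bases before the RefSeq start of Areg is shown because it holds 2 letter patterns that, of the 7 members searched, only Errfi1 shares. No window was at hand for Ereg, Erbb3 and Hbegf. RefSeq windows (GRCm38.p6, the mm10 sequence) were at hand for 7 of the 10 members, in 8 windows, and were searched on both strands for TGACGTCA (the cAMP response element), TATAAA (the TATA box), TGANTCA (AP-1) and GCGNGGGCG (EGR). Areg and Errfi1 each held 1 cAMP response element and 1 TATA box, in capitals below. Errfi1 also has a window before another start, at chr4:150853546-150853795, which held none of the patterns. Among all 32851 windows of this length, 1.55% hold TGACGTCA and 12.4% TATAAA. The patterns AP-1 and EGR, in 6.75% and 4.70% of windows, were in 0 of the 8. Areg lies at chr5:91139349-91139598 and Errfi1 at chr4:150854820-150855069, both on the plus strand. Counted from the RefSeq start, which is the base after each window and lies before the gene start in the count table given above and below, the element begins 61 bases upstream in Areg and 51 bases upstream in Errfi1. A match describes these letters and shows no binding.
Areg: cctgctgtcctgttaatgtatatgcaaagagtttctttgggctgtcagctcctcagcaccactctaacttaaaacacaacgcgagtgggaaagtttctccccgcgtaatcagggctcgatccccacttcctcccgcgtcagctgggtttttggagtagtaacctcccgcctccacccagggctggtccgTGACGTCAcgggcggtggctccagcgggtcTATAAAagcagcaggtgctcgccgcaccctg
Errfi1: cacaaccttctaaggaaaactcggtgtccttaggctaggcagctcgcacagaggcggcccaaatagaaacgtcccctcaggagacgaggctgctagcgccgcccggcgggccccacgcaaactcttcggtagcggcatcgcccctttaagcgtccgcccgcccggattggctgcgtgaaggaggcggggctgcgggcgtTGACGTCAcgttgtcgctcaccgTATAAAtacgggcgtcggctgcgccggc

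Hbegf (chromosome 18, 36504927 to 36515805, minus strand) codes for heparin-binding EGF-like growth factor, which binds EGFR and ERBB4. It was 57.5, 44.2, 55.2, 52.0 and 65.5 CPM in LF mice, 47.2, 54.1, 50.8, 61.6 and 58.7 CPM in HF mice, and 44.3, 53.3, 47.9, 33.5 and 41.9 CPM in HFLF mice. The groups overlapped, with HFLF replicates 4 and 5 below every LF and HF mouse. Its log2 fold change was -0.31 (SE 0.11, unadjusted p = 0.013) against LF and -0.30 (SE 0.11, unadjusted p = 0.0157) against HF. Both missed the limit of 0.01 in edgeR, and DESeq2 called the gene against LF. In HF against LF mice it was -0.01 (SE 0.11).

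Tgfa (chromosome 6, 86195251 to 86275449, plus strand), which codes for transforming growth factor alpha, averaged 54.3 ± 2.57 CPM in LF, 59.0 ± 7.05 in HF and 57.9 ± 4.93 in HFLF mice. No comparison passed the test, with log2 fold changes of 0.12, 0.09 and -0.03 (SE 0.07 to 0.08). Btc (chromosome 5, 91357261 to 91402994, minus strand) codes for betacellulin, a ligand of EGFR and ERBB4. It averaged 8.12 ± 1.41, 7.53 ± 0.594 and 7.62 ± 0.982 CPM in LF, HF and HFLF mice, with log2 fold changes of -0.11, -0.10 and 0.01 (SE 0.12). Neither gene passed the test in any comparison.

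Ereg (chromosome 5, 91074617 to 91093649, plus strand), which codes for epiregulin, lay 46.0 kb before Areg on the same strand. It was 1.68, 0.982, 1.30, 4.12 and 1.74 CPM in LF mice, 2.26, 1.22, 4.25, 4.68 and 3.06 CPM in HF mice, and 3.85, 2.44, 3.52, 1.81 and 3.28 CPM in HFLF mice. LF replicate 4 was far above the other LF mice, and also had the highest Areg of all 15 mice. The log2 fold change was 0.65 (SE 0.37, adjusted p = 0.549) in HF against LF and 0.60 (SE 0.37, adjusted p = 0.443) in HFLF against LF mice. Without LF replicate 4, which had 4.12 CPM, the gene was called higher in both comparisons, at 1.11 (adjusted p = 0.177) and 1.06 (adjusted p = 0.0923). Over all 24 alternatives these adjusted p ran from 0.177 to 0.799 and from 0.0923 to 0.665, and this was the one alternative in which edgeR or DESeq2 called Ereg.

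The 5 ligands together summed to 59.1 ± 4.88 RPKM in LF, 59.4 ± 5.55 in HF and 50.4 ± 6.16 in HFLF mice (SD, n = 5). By these sums Areg made up 35.9%, 34.8% and 32.0% of ligand transcripts, and Hbegf 39.0%, 38.6% and 36.9%. Tgfa made up 19.5% ± 2.33 in LF and 24.4% ± 2.62 in HFLF mice, although its own level was not called. Ereg and Btc together stayed the smallest contributors, with Ereg at 0.787%, 1.24% and 1.42%. Such shares add up to the whole and do not vary independently of each other.

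Neither inhibitor was called by edgeR or DESeq2 in any comparison. Errfi1 (chromosome 4, 150855091 to 150868880, plus strand) averaged 94.3 ± 7.91, 99.3 ± 6.88 and 97.4 ± 10.8 CPM in LF, HF and HFLF mice, with log2 fold changes of 0.07, 0.05 and -0.03 (SE 0.07 to 0.08). Lrig1 (chromosome 6, 94604529 to 94700145, minus strand) was 196, 183, 212, 173 and 187 CPM in LF mice, 184, 175, 183, 162 and 153 CPM in HF mice, and 157, 166, 180, 176 and 186 CPM in HFLF mice. Both other groups were centred lower than LF mice and overlapped with them. Lrig1 had log2 fold changes of -0.15 (SE 0.06, adjusted p = 0.418 in edgeR) in HF against LF and -0.13 (SE 0.06, adjusted p = 0.305 in edgeR) in HFLF against LF mice. Lrig1 overlaps Slc25a26 on the opposite strand.

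**Figure D4:**
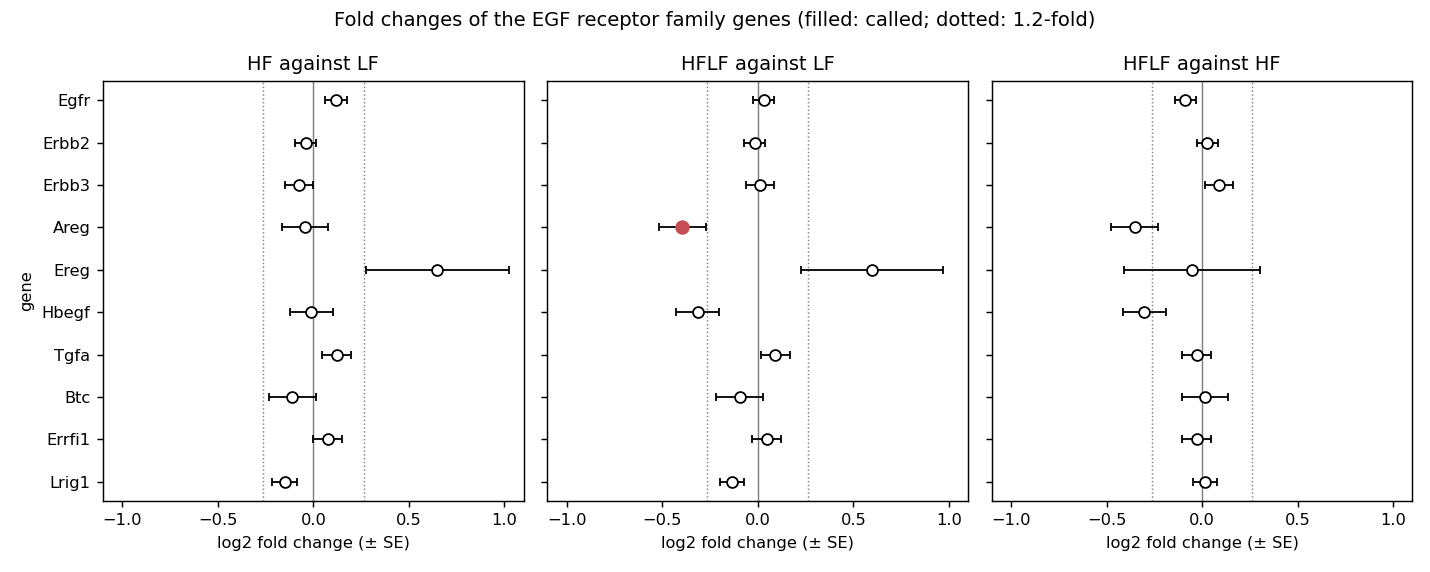
Log2 fold change with its SE for each of the 10 genes in the 3 comparisons, with a filled point where the gene was called and dotted lines at a fold change of 1.2. Areg in HFLF against LF mice, at -0.40, is the one filled point, and Ereg has the widest bars at an SE of 0.37.

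The other genes of the system came from lists of 7 further receptors and ligands, 6 genes of ligand release, 13 of receptor turnover, 17 adaptors and RAS-ERK kinases, 9 genes of the PI3K-AKT arm and 17 ERK response and feedback genes. These lists were chosen with earlier results of these data known. Of the further receptors and ligands only Egf and Nrg4 passed the filter. Erbb4, the fourth receptor, was listed at 0 in all libraries, and Nrg1, Nrg2 and Nrg3 had at most 3 counts in any library. Egf was 12.1 ± 3.16, 11.2 ± 1.86 and 9.75 ± 1.03 CPM in LF, HF and HFLF mice. With edgeR, 0 genes of this list, of ligand release, of the adaptors and kinases and of the PI3K-AKT arm were called in any comparison, and DESeq2 also called 0. At an unadjusted p under 0.05, HFLF against LF mice had 0 of 2, 2 of 6, 1 of 17 and 3 of 9 of them, beside 16.7% of all genes. HFLF against HF mice had 0, 1, 1 and 2, beside 13.4%, and HF against LF mice 0 in each list, beside 10.9%.

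In receptor turnover, Sh3kbp1 rose in both comparisons with LF mice. It codes for an adaptor (CIN85) that joins CBL and the endocytic machinery at active EGF receptors. It averaged 9.30 ± 1.87 CPM in LF, 12.8 ± 1.45 in HF and 13.5 ± 0.916 in HFLF mice, with log2 fold changes of 0.46 (SE 0.12, adjusted p = 0.15 in edgeR) and 0.54 (SE 0.12, adjusted p = 0.0301 in edgeR). The call in HFLF against LF mice held in all 24 alternatives. That in HF against LF mice was lost when LF replicate 1, 2 or 5 or HF replicate 1, 3 or 5 was left out (0.36 at the lowest). It was also lost at an adjusted p under 0.05 with no fold limit. Rnf41, the ubiquitin ligase NRDP1 that acts on ERBB3, was picked out after its values were seen. It lay between 34.4 and 37.6 CPM in LF, 32.2 and 37.9 in HF and 28.8 and 32.1 in HFLF mice, so that HFLF mice did not overlap with either group, as for 3.62% of genes against LF and 3.38% against HF. Its log2 fold change of -0.25 against LF (SE 0.05, adjusted p = 0.026 in edgeR) was short of the 1.2-fold limit, so the gene was not called. Cbl, also picked out after its values were seen, went the other way. It lay between 63.2 and 76.8 CPM in LF, 61.5 and 73.5 in HF and 73.6 and 78.1 in HFLF mice. Its log2 fold change was 0.17 (SE 0.06) against LF and 0.16 (SE 0.06) against HF, and it was not called. Of the 13 genes, 9 were above 0 and 4 below in HFLF against LF mice.

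Of the 17 ERK response and feedback genes, 5 were called lower and 0 called higher in HFLF against LF mice, with 11 log2 fold changes below 0 and 6 above. Of all genes, 1.87% were called lower and 1.85% higher in this comparison. Spry1 and Spry2, which code for Sprouty inhibitors of receptor signalling, fell by 0.40 and 0.30 on the log2 scale (SE 0.09 and 0.07, adjusted p = 0.0326 and 0.04 in edgeR). Dusp1 and Dusp5, phosphatases of MAP kinases, fell by 0.67 and 0.60 (SE 0.19 and 0.20), and Fos, a transcription factor induced by ERK, by 0.35 (SE 0.11). The 12 uncalled genes lay between -0.20 (Egr1) and 0.11 (Spry4), with Fosl1 at -0.18, Phlda1 at -0.11, Etv4 at -0.06, Dusp6 at 0.00 and Etv5 at 0.09. Spry1 was also called in HF against LF mice, at -0.35 (SE 0.09), beside 0.864% of all genes called lower. In that comparison 14 of the 17 genes had a log2 fold change below 0, and the list median was -0.20, beside 0.00 for all genes. An unadjusted p under 0.05 in edgeR was met by 6 of the 17, beside 10.9% of all genes. Against HF, HFLF mice had 1 gene called, Spred1, at 0.29 (SE 0.09), beside 1.23% of all genes called higher. The count of 5 in HFLF against LF mice was 2 at an adjusted p under 0.05 with no fold limit and without LF replicate 1, and 3 without LF replicate 2 or 5 or HFLF replicate 1 or 4, whereas Spry1 was called in all 24 alternatives. Dusp5 was not called with the replicate number as a block, with a GC trend removed, or at an adjusted p under 0.05 with no fold limit. Nor was Dusp5 called in 6 of the 15 fits that left out 1 library. The call of Spry1 in HF against LF mice was lost at an adjusted p under 0.05 with no fold limit. Without LF replicate 1 or 2 or HF replicate 3, 4 or 5 the call of Spry1 was lost too (-0.31 at the weakest). That of Spred1 was lost without HF replicate 1, 2 or 5 or HFLF replicate 1, 3 or 5 (0.23 at the lowest), with the compared groups alone, with a GC trend removed and at an adjusted p under 0.05 with no fold limit, and DESeq2 called 3 genes there (Dusp4, Spred1 and Spry4).

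**Figure D5:**
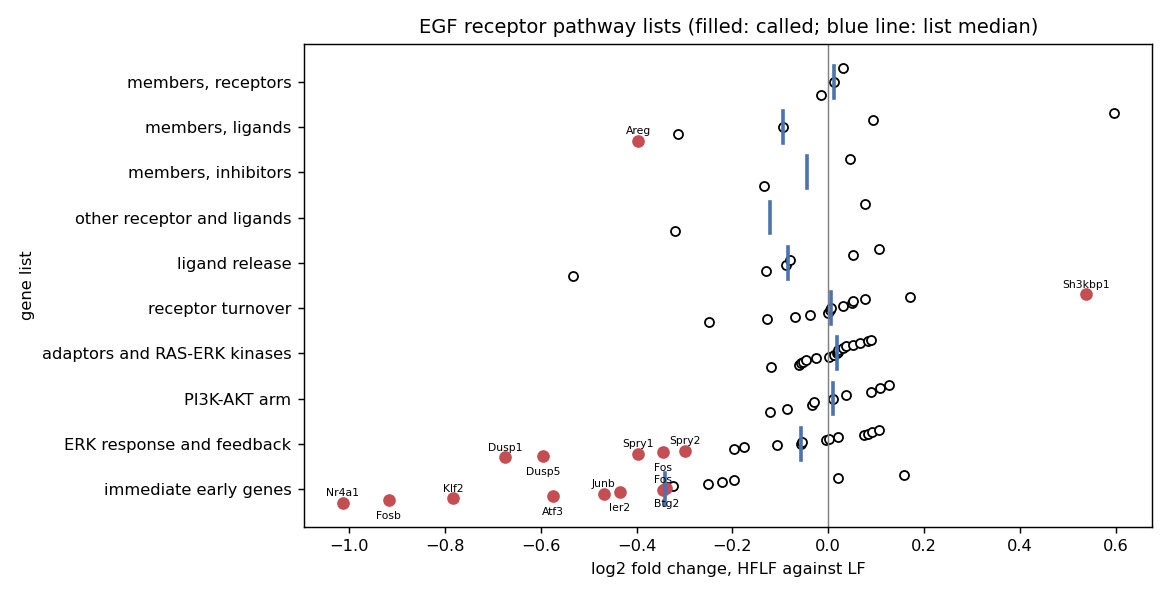
Log2 fold change in HFLF against LF mice of each tested gene in the EGF receptor lists and among the immediate early genes, with filled and named points where the gene was called and a blue line at each list's median. The immediate early genes have the lowest median, at -0.34, while the medians of the receptor, adaptor and PI3K-AKT lists lie near 0.

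Immediate early genes, which cells switch on quickly after a stimulus, and markers of some cell types moved in the same comparison as Areg. Their lists, too, were chosen with earlier results of these data known. Of 14 immediate early genes, 8 were called lower and 0 called higher in HFLF against LF mice, beside 1.87% and 1.85% of all genes. Among the 14, 12 log2 fold changes were below 0 and 2 above (median -0.34), and 3 (Egr1, Fos and Ier3) are also among the ERK response genes. Nr4a1 fell by 1.01 (SE 0.19), Fosb by 0.92 (SE 0.20), Ier2 by 0.44 (SE 0.08) and Junb by 0.47 (SE 0.12). Atf3 (-0.57), Btg2 (-0.34), Klf2 (-0.78) and Fos were the other genes called. Summed, the 14 genes had 1873 to 2471 CPM in LF, 1760 to 2537 in HF and 1689 to 2118 in HFLF mice, so the groups overlapped. Against HF, 4 of the 14 were called lower in HFLF mice (Fosb, Ier2, Junb and Jun), beside 1.42% of all genes. That count was 6 with DESeq2 and with the compared groups alone, 0 at an adjusted p under 0.05 with no fold limit, and 3 to 5 without 1 library. The call of Fosb there was lost without HF replicate 2, 4 or 5 or HFLF replicate 1, 3 or 5, and that of Ier2 with a GC trend removed (-0.23). The count of 8 against LF was 5 without LF replicate 1 or 5 or HFLF replicate 1, and 3 at an adjusted p under 0.05 with no fold limit. The part of these genes in the Areg and Hbegf values was not tested.

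Of 6 markers of mature colonocytes, 4 were called higher in HFLF against LF mice (Car4, Ceacam20, Krt20 and Slc26a3), beside 1.85% of all genes. All 6 had a log2 fold change above 0. The 6 summed to 5192 to 11040 CPM in LF, 6028 to 10430 in HF and 8196 to 13650 in HFLF mice. Against HF, 2 were called higher (Car4 at 0.37 and Slc26a3 at 0.62), beside 1.23% of all genes. All 6 had an unadjusted p under 0.05 in edgeR there, beside 13.4% of all genes. The count of 4 against LF ran from 3 to 5 without 1 library and was 1 at an adjusted p under 0.05 with no fold limit. The count of 2 against HF was 4 without HF replicate 5 or HFLF replicate 2. Of 4 tuft cell markers, 2 were called higher against LF (Dclk1 and Trpm5), beside 1.85% of all genes, and all 4 were above 0. The 4 summed to 35.8 to 54.0, 43.2 to 51.8 and 48.9 to 66.1 CPM. The tuft count of 2 was 0 without LF replicate 2, 4 or 5 or HFLF replicate 2 and at an adjusted p under 0.05 with no fold limit. It was 1 with upper-quartile scaling, the compared groups alone, the replicate number as a block and a GC trend removed, and without HF replicate 3 or 4 or HFLF replicate 4. Stem cell, goblet cell and proliferation markers had 0 genes called by edgeR and 0 by DESeq2 in HFLF against LF mice, and 0 with an unadjusted p under 0.05. All 5 proliferation markers had a log2 fold change above 0 there, with a median of 0.12. The 4 stem cell markers were all below 0, with a median of -0.10, and 5 of 6 goblet cell markers were above 0. Of 5 enteroendocrine markers, 3 had a log2 fold change below 0 and 2 above in HFLF against HF mice (median -0.0021). Pyy, which codes for the gut hormone peptide YY, was called lower there at -0.35 (SE 0.11, adjusted p = 0.163 in edgeR) and by DESeq2. Of all genes, 1.42% were called lower in that comparison. Pyy was -0.30 (SE 0.11) and not called against LF. Its call against HF was lost without HF replicate 1, 2 or 3 or HFLF replicate 1, 2 or 4, with a GC trend removed and at an adjusted p under 0.05 with no fold limit. It was called against LF with the replicate number as a block and without LF replicate 2 or HFLF replicate 3 or 5. The 5 summed to 140.5 to 292 CPM in LF, 178 to 333 in HF and 158 to 337 in HFLF mice. The part of these cell types in the Areg result was not tested.

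Across the 15 libraries, the genes whose log2 CPM followed Areg most closely among 11036 genes with a mean of at least 50 counts were Emc6 (Pearson r = 0.88), Timm13 (0.86) and Traf4 (0.85). They code for a subunit of a membrane complex of the endoplasmic reticulum, a chaperone of mitochondrial import and a signalling adaptor. After removal of the group means these were 0.85, 0.80 and 0.71. Among the members, Hbegf had r = 0.69, which placed it 133rd of all genes, and 0.47 after that removal. Errfi1 went from 0.40 to 0.60, and Lrig1 from -0.26 to -0.73. These values describe 15 libraries that share their groups and scaling, and carry no test.

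DNA methylation was given as a list of 8199 regions that differed between HF and LF mice in whole-genome bisulfite sequencing, with a direction and no value per mouse. Of the 10 members, 6 had a region in the gene or within 50 kb of its start, beside 37.7% of all tested genes. Methylation was higher in HF mice in a region of 284 bp, 9.90 kb before the start of Egfr (chromosome 11, 16742159 to 16742442), 15.4 kb before Hbegf (chromosome 18, 36531175 to 36531181), and in an intron of Lrig1, 6.62 kb after its start (chromosome 6, 94693506 to 94693553). It was lower in introns of Erbb2 (chromosome 11, 98423873 to 98423877) and Tgfa (chromosome 6, 86209954 to 86209965), and 35.8 kb before Erbb3 (chromosome 10, 128625253 to 128625260). Areg, Ereg, Btc and Errfi1 had 0 regions. With edgeR and DESeq2, 0 of the 6 genes were called in HF against LF mice, and the list holds no comparison with HFLF mice.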

How the data were processed

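RNA was measured in 15 libraries of 5 mice per group, which were separate animals. The authors trimmed reads with cutadapt, aligned them to mm10 with TopHat2 2.0.4 and counted them with HTSeq, and deposited raw counts per gene, 1 column per mouse. The library kit keeps strand, but the strand setting and annotation release of the counting are not given in the sources used here. The authors also deposited DESeq2 tables of fold changes and p-values against LF, which were not used, a list of methylation regions of HF against LF mice with direction scores, of which position and direction were used, and methylation fractions of PCR amplicons, which were not used.

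Counts were filtered with filterByExpr, scaled by TMM and fitted over all 15 libraries in edgeR 4.0.16 (R 4.3.3) with group as the only term, using the study's cutoffs given in the report. The steps were tested on simulated data, with changes planted only in well-counted genes and larger than those of Areg and Hbegf. Smaller changes and low counts were not covered. Exon lengths and promoters came from RefSeq GRCm38.p6, and matched 98.6% of entries for length. The alternatives were DESeq2 1.42.0 with its own scaling, edgeR with DESeq2's size factors, upper-quartile scaling, no low-count filter, at least 10 counts in every library, the compared groups alone, the replicate number as a block, an adjusted p under 0.05 with no fold limit or unadjusted p limit, a GC trend removed, and each of the 15 libraries left out. The alternative with an adjusted p under 0.05 read the main fit at another limit, so no direction could change in it. Leaving out a mouse of the third group changed a comparison only through the filter, the scaling and the shared spread. All 10 members are named, with called genes of the lists and the 3 genes most like a called member. Members and lists were chosen with earlier results of these data known.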

Additional observations from a re-analysis of the deposited data

Results flagged for a closer look

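In 4 of the 30 sets of 5 mice (10 genes in 3 groups), 1 mouse stood apart by Dixon's criterion, with a gap to the next mouse over 0.71 of the set's range; chance gives about 1 in 20. Egfr was 60.2 CPM in HFLF replicate 2 and Erbb2 407 CPM in HFLF replicate 1, each the highest of its group. Ereg was 4.12 CPM in LF replicate 4, the highest of its group, and the calls that change without this mouse are given with the gene. Tgfa was 49.5 CPM in HFLF replicate 5, the lowest of its group.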

How the results depend on the processing

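In HFLF against LF mice the 1 called member became 2 with DESeq2 and with no low-count filter (Areg and Hbegf), and 0 with the compared groups alone and at an adjusted p under 0.05 with no fold limit. Without 1 library the count ran from 0 to 2, and without LF replicate 4 the called gene was Ereg in place of Areg. In HFLF against HF mice the count of 0 became 1 (Areg) with DESeq2, upper-quartile scaling, the compared groups alone and a GC trend removed, and ran from 0 to 1 without 1 library. In HF against LF mice it ran from 0 to 1 without 1 library, and was 0 in the other alternatives. Over 30 log2 fold changes and 24 alternatives, 667 values kept direction and side of the limits, 33 changed sign, 14 gained a call and 6 lost one. The signs that changed all belonged to values near 0. With a GC trend removed, Erbb2 was 0.037 in HFLF against LF and Btc -0.014 in HFLF against HF mice. Without 1 library, HF against LF values ran from -0.11 to 0.047 for Areg and from -0.079 to 0.063 for Hbegf. HFLF against LF values ran from -0.034 to 0.059 for Egfr, -0.063 to 0.016 for Erbb2 and -0.043 to 0.063 for Erbb3. HFLF against HF values ran from -0.024 to 0.043 for Erbb2, -0.26 to 0.14 for Ereg, -0.064 to 0.044 for Tgfa, -0.051 to 0.064 for Btc, -0.071 to 0.025 for Errfi1 and -0.024 to 0.047 for Lrig1. The cause of these shifts was not tested.

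With the replicate number as a block (a replicate block), the members called stayed at 0, 1 (Areg) and 0, and Ereg was 0.049 in HFLF against HF mice. The labels do not say that a number marks a shared cage or day, so the numbers were not taken as pairs. Same-numbered mice had correlated deviations above 0.1 in 5 of 15 pairs (r from -0.23 to 0.33), among them the pairs of replicate 2 at 0.20, 0.22 and 0.16. Pairs with different numbers ran from -0.34 (LF replicate 2 with HF replicate 3) to 0.29 (LF replicate 4 with HFLF replicate 3). Several of them were also above 0.1. Among these were HF replicate 5 with HFLF replicate 4 at 0.28, LF replicate 1 with HFLF replicate 4 at 0.26 and LF replicate 5 with HFLF replicate 1 at 0.20. A shared source was not tested. Depth limits Ereg most, with 15 to 79 counts a library.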
